A study of Mus musculus with 8 samples.

Results

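Genes of the neural crest and of progenitor cells were followed across 8 mouse melanomas read on Illumina bead arrays, 1 array per tumour. The set has 10 genes, chosen by name, and all probes annotated to them were taken. Of the 10 genes, 9 had a probe, 14 probes in all, and Sox10 was not analysed here. A probe is called detected on an array when its detection p, which compares it with the negative control beads of that array, is under 0.05. At least 1 probe was detected on at least 1 array for 7 of the 10 genes, which stood among the 10461 genes that could be tested over the whole array. The members and the gene lists used below were chosen with earlier results of these data known.

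The tumours arose in FVB/n mice with the genotype DCT-TVA;Ink4a/Arf lox/lox, in which the Dct promoter places the avian virus receptor TVA on melanocytes and the tumour suppressor locus Ink4a/Arf is floxed. Cells producing avian leukosis viruses were injected under the skin at birth. The viruses carried a Tet-off transactivator and TRE-NRASQ61R-IRES-Cre, so that infected melanocytes made the Q61R form of the GTPase NRAS and lost Ink4a/Arf through Cre, a loss that every group shares. Doxycycline in the food, given once tumours reached 1000 mm3, switched NRAS off, and the 7 resistant tumours, labelled NRASQ61R Off, grew in spite of this after a first regression. Mice of the other cohort stayed on standard feed. The 1 control tumour is labelled NRASQ61R On, and its description names NRAS-IRES-Cre without the Tet-off parts, so its virus is not settled by the labels. The labels give neither the age of the mice at sampling nor whether the 7 tumours came from separate mice. The p-values thus reflect spread among the arrays of these resistant tumours, part of which may be technical, and hold no spread among controls. The comparison asks how neural crest and progenitor genes stood in tumours that grew back without oncogenic NRAS.

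The neural crest is the embryonic cell population that gives rise to melanocytes, Schwann cells, peripheral neurons and part of the skeleton of the face. AP-2 and SOX transcription factors hold its cells in a multipotent state, and the filament protein nestin and the neurotrophin receptor p75 mark the cells while they migrate. Cell adhesion molecules of the immunoglobulin family are also among the members. In melanoma, loss of the pigment program together with high p75, SOX9 or nestin is known as a dedifferentiated or neural crest-like state.

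Depth on arrays is limited by signal over background: between 11821 and 12851 of 25697 probes were detected per array, 12225 in the control. Levels below are log2 intensities after background correction and quantile normalization, and the lowest level of any detected probe lay between 5.12 and 5.36, depending on the array. Resistant tumour 6 stood apart from the others, with Pearson coefficients across genes of 0.878 to 0.903 with the other 7 tumours. The melanocyte label was checked against 8 pigment cell markers, all with a probe. Mitf, Tyr, Tyrp1, Dct, Mlana and Gpr143 were detected on 0 of 8 arrays, Pmel on 2 and Slc45a2 on 7, the control not among them. In whole tumour RNA, fewer cells of a type and less RNA per cell cannot be told apart.

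The members Tfap2b, Nes and Nrcam, read highest in the control, and the stretches before their transcription starts are shown because these are the genes that lay below the control in all resistant tumours. Each is the 250 bases upstream of a start in RefSeq, build GRCm38.p6, a C57BL/6J assembly, read 5′ to 3′ on the gene's strand. Capitals mark matches, on either strand, to the SOX motif ACAANG or to the E-box CANNTG, the site of basic helix-loop-helix and SNAI or ZEB zinc finger proteins. The AP-2 palindrome GCCNNNGGC was searched as well. No match overlaps another.
Tfap2b, chr1:19211804-19212053, plus strand: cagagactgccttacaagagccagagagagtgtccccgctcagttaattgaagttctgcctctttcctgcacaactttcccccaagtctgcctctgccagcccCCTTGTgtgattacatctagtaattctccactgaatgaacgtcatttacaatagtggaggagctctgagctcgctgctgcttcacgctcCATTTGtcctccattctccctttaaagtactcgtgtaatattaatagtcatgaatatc
Nes, chr3:87970843-87971092, plus strand: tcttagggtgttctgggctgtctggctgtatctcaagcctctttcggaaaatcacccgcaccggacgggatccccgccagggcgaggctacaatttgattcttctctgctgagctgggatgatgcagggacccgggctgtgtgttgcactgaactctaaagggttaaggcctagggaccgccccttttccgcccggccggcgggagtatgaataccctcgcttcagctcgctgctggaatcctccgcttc
Nrcam, chr12:44328635-44328884, plus strand: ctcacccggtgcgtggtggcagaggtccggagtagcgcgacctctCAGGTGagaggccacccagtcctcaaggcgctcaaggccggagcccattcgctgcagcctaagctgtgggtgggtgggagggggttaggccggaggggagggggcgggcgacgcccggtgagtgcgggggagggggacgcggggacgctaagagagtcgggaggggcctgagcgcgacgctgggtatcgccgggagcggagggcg

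The Tfap2b stretch holds 1 SOX match, 147 to 142 bases before the start, and 1 E-box, 58 to 53 bases before it. The Nrcam stretch holds 1 E-box, 205 to 200 bases before the start, and the Nes stretch holds none of the motifs searched. The AP-2 palindrome was in none of the 7 stretches that the table gives for 6 members (these 3, Ngfr, Gfra1 and 2 starts of L1cam). Among 32851 promoter stretches of the same length, 13.7% hold the AP-2 palindrome, 36.3% the SOX motif and 66.2% an E-box. GC content was 46.4% for Tfap2b, 58.8% for Nes and 72.4% for Nrcam, against a median of 52.4%. A match is a description of letters in this window and not a site.

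Of the 7 members tested, Tfap2b, Nes and Nrcam were below the control in all 7 resistant tumours, while Ngfr, Ncam1 and Sox9 had resistant tumours on both sides of it. Gfra1 was not detected in the control, which sets no order between the control and its undetected tumours. That is 3 of 7 below and 0 of 7 above. Over all genes tested, 17% had all 7 resistant tumours below the control and 13.3% had all 7 above. The members were proposed with such results known, so these shares are a description. By limma, with adjustment over all genes, 0 of 7 members passed at an adjusted p under 0.05. Over all genes 0.210% passed as lower, 0.00956% as higher and 0.220% in either direction. At an unadjusted p under 0.05 there were 2 members, Tfap2b and Nrcam, both lower. Over all genes, 5.35% were lower and 2.86% higher at that threshold. The median difference between resistant tumours and control was -0.37 over the 7 members and -0.02 over all genes. With 1 control, all 6 residual degrees of freedom came from the resistant tumours. The exact permutation of which tumour is set apart has 8 choices, so its p cannot go below 0.125. It was at that limit for Tfap2b and Nrcam. Each of these counts of members changed with 1 tumour. Without resistant tumour 1, Tfap2b passed. Without resistant tumour 6, 4 members in place of 3 were below the control in every tumour left. Without resistant tumour 7, the measured values of 2 members in place of 0, Sox9 and Gfra1, were above it in every tumour left, but for Gfra1 the control and tumour 5 were both undetected.

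**Figure D1:**
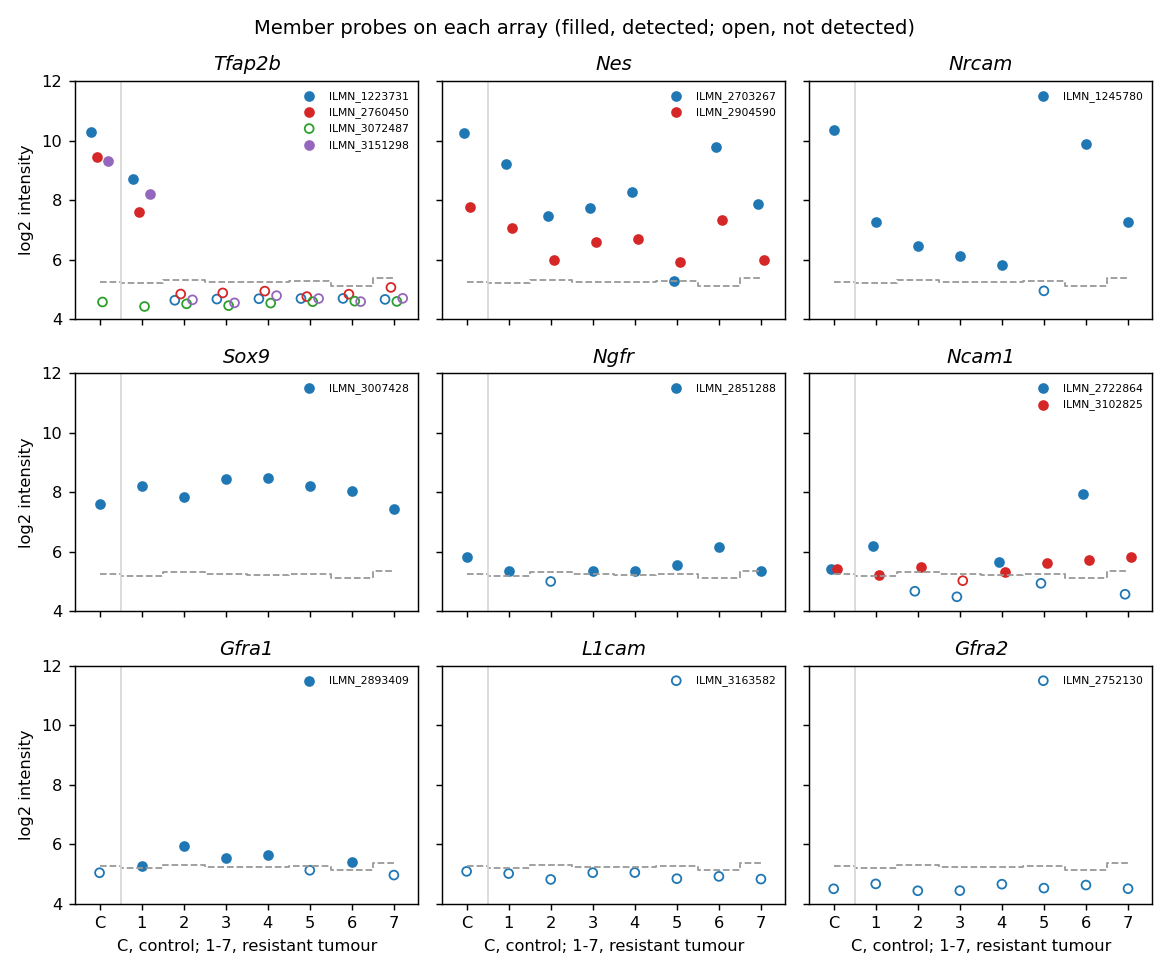
Log2 intensity (vertical axis) of every member probe in the control (C) and resistant tumours 1 to 7 (horizontal axis). Filled points were detected, open points were not, and the dashed line is the lowest detected level of each array. Tfap2b stands above that line in the control and tumour 1, and Nrcam and Nes are highest in the control and tumour 6.

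Tfap2b encodes AP-2 beta, a transcription factor of the neural crest and its sympathetic and facial derivatives. It was present in the control and in 1 resistant tumour. On probe ILMN_1223731, which represents the gene in the fit, the control stood at 10.30 and resistant tumours 1 to 7, in that order, at 8.71, 4.63, 4.67, 4.68, 4.69, 4.69 and 4.66. Tumours 2 to 7 lay in the background, with detection p from 0.264 to 0.417. On the same probe, tumour 1 was 3.02-fold below the control and each of the other 6 at least 30.7-fold below it. These folds compare 1 array with 1 array.

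Probes ILMN_2760450 and ILMN_3151298 gave the same picture. They read 9.44 and 9.31 in the control, 7.59 and 8.19 in tumour 1, and no level above 5.06 and 4.78 in tumours 2 to 7, none of them detected. The remaining probe, ILMN_3072487, gave no detected value on any of the 8 arrays. ILMN_3151298 and ILMN_3072487 are annotated to the same transcript record, and where in it they lie was not examined. In the fit, the difference between resistant tumours and control was -5.06 (SE 1.39, 95% confidence interval -8.24 to -1.87, limma adjusted p = 0.352). Its spread is that of 1 tumour with signal against 6 without. Without tumour 1 the gene is represented by ILMN_2760450 and differs by -4.57 (adjusted p = 0.000733), but then only undetected values remain in the resistant group. Such a p says that the control's signal exceeded background, and no more.

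Nrcam encodes an adhesion molecule of the L1 family that guides axons and gathers sodium channels at nodes of Ranvier. Its 1 probe gave 10.35 for the control and 7.27, 6.47, 6.12, 5.82, 4.95, 9.89 and 7.27 for resistant tumours 1 to 7 in that order. Tumour 6 came close to the control and tumour 5 was not detected, with a detection p of 0.130. Set against the control on single arrays, tumour 6 was 1.38-fold lower and tumours 1, 2, 3, 4 and 7 between 8.46-fold and 23.2-fold lower. Tumour 5 was at least 33.9-fold lower. The groups did not overlap, and the difference of means was -3.53 (SE 1.44, 95% confidence interval -6.82 to -0.23, limma adjusted p = 0.582). The mean of 6.83 ± 1.58 (SD, n = 7) includes the undetected value of tumour 5.

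Nes encodes nestin, the intermediate filament protein of neural and neural crest progenitors, also made by muscle precursors and by growing vessels. On probe ILMN_2703267 the level was 10.24 in the control and 9.21, 7.46, 7.73, 8.28, 5.28, 9.79 and 7.86 in resistant tumours 1 to 7. On probe ILMN_2904590 it read 7.77 in the control and, in the same order of tumours, 7.06, 5.97, 6.57, 6.69, 5.93, 7.34 and 5.99. Both probes were detected on all 8 arrays, although tumour 5, with a detection p of 0.0489, was near the limit on the first. Both placed the control first, then tumours 6, 1 and 4, and placed tumour 2 and then tumour 5 last. They differed in the order of tumours 3 and 7.

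The gap of 0.45 between control and tumour 6 on ILMN_2703267, and of 0.44 on ILMN_2904590, is smaller than the SD between resistant tumours on each, 1.44 and 0.57. The difference of means was -2.30 (SE 1.32, 95% confidence interval -5.32 to 0.72, limma adjusted p = 0.701) on the first. It was -1.27 (SE 0.54, limma adjusted p = 0.579) on the second, when every detected probe was tested on its own. All 7 tumours lay below the control on both probes.

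**Figure D2:**
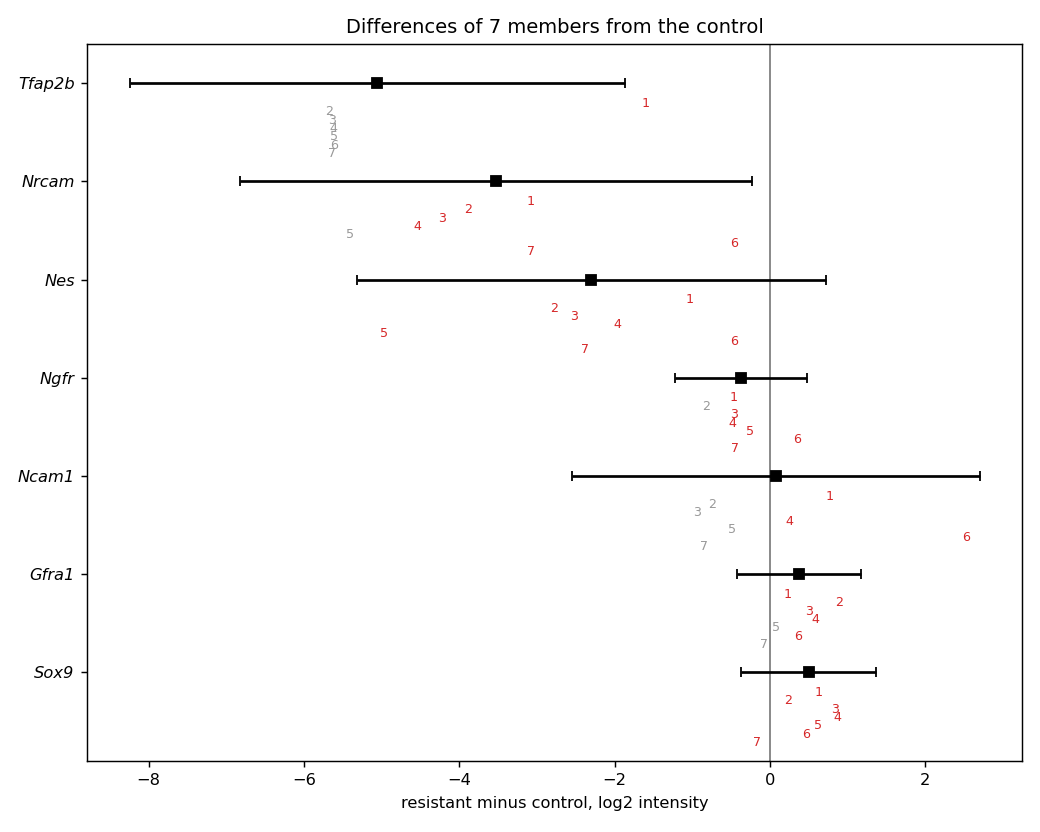
Difference from the control in log2 intensity (horizontal axis) for the 7 tested members (vertical axis), 1 probe per gene. Squares are the mean of 7 resistant tumours with limma's 95% confidence interval, and digits are single tumours, red where the tumour's array detected the probe and grey where it did not; only Tfap2b, Nrcam and Nes have all 7 digits left of 0, and the intervals of Tfap2b and Nrcam leave out 0 before adjustment.

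Sox9, a transcription factor of the crest, of cartilage and of hair follicle stem cells, was detected on all 8 arrays with a detection p of 0. The control was at 7.60 and resistant tumours 1 to 7 at 8.22, 7.84, 8.44, 8.47, 8.22, 8.06 and 7.43, tumour 7 alone being below the control. It was above the control in 6 of 7 tumours and varied little, with a range of 1.04 over the 8 arrays. The difference was 0.50 (SE 0.38, 95% confidence interval -0.37 to 1.37, limma adjusted p = 0.787).

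Ngfr encodes p75, the low-affinity receptor that binds all neurotrophins. Its probe was near the detection limit. The control was at 5.83 and resistant tumours 1 to 7 at 5.36, 5.01, 5.37, 5.34, 5.57, 6.18 and 5.37. All but tumour 2 were detected, and tumour 6 alone exceeded the control. With the detection p required to be under 0.01, the control (0.00627) and tumour 6 (0) were left. The difference was -0.37 (SE 0.37, 95% confidence interval -1.22 to 0.48, limma adjusted p = 0.855).

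Ncam1 encodes the neural cell adhesion molecule NCAM, also found on muscle fibres and natural killer cells. Its probes disagreed. ILMN_2722864 gave 5.42 for the control and 6.20, 5.67 and 7.96 for resistant tumours 1, 4 and 6. Tumours 2, 3, 5 and 7 were not detected on it. ILMN_3102825, annotated to another transcript record, stayed between 5.03 and 5.83 on all arrays, with tumour 7 highest and tumour 6 at 5.72. Tumour 6 was thus 5.79-fold above the control on the first probe and 1.22-fold above it on the second. The difference of means was 0.08 (SE 1.15, limma adjusted p = 0.993) on the first and 0.02 (SE 0.32, limma adjusted p = 0.991) on the second. Without tumour 6, ILMN_3102825 becomes the brighter probe and stands for the gene, with a difference of -0.02. The same switch occurs without tumour 1 (difference 0.065) and without tumour 4 (0.045). These differences are those of the second probe and say nothing of the first.

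Gfra1 and Gfra2 encode the coreceptors through which GDNF and neurturin reach the receptor tyrosine kinase RET. The Gfra1 probe was not detected in the control (5.04) nor in resistant tumours 5 and 7. In tumours 1, 2, 3, 4 and 6 it was detected, at 5.28, 5.93, 5.55, 5.64 and 5.41, with detection p from 0.00627 to 0.0351. The control has only a bound, against which tumour 2 was at least 1.60-fold higher. The difference of means was 0.37 (SE 0.35, limma adjusted p = 0.833), with undetected values in both groups. The Gfra2 probe was detected on 0 of 8 arrays, at 4.44 to 4.67 with detection p of at least 0.330. L1cam, the founding member of the NRCAM family, was likewise detected on 0 of 8 arrays, at 4.82 to 5.09. Its detection p went from 0.0702 to 0.201, so these arrays show no signal above background and set no order among tumours.

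By a fixed rule, the genes whose pattern over the 8 arrays was most like a member were looked up among 1617 other genes detected on at least 4 arrays with a range of at least 2 on the log2 scale. For Nes it was Hbegf, an EGF family ligand (Pearson 0.947, Spearman 0.952), and Sh3yl1 (0.886 and 0.929). For Nrcam it was the T-box factor gene Tbx2 (0.922 and 0.929) and Myh10, a nonmuscle myosin (0.922 and 0.929). For Ncam1, on the probe with a signal in tumour 6, it was Gas6, the ligand of TAM receptors (0.988 and 0.857), and the neuronal microtubule gene Map2 (0.975 and 0.905). Hbegf read 10.55 in the control and from 8.13 in tumour 5 to 10.04 in tumour 1. Gas6 read 9.82 in the control and 12.12 in tumour 6, where that Ncam1 probe was also highest. The Ncam1 probe was not detected in tumours 2, 3, 5 and 7, so its values there are background. These coefficients are the highest of a search over 8 arrays and carry no test.

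Over 7 lists of related genes, 46 genes were detected, and by limma 1 passed as lower and 0 as higher, with 5 lower and 0 higher at an unadjusted p under 0.05 (Zic1, Tfap2a, Snai1, Cd44 and St8sia2), beside the 5.35% lower and 2.86% higher over all genes. All 7 resistant tumours lay below the control for 7 of the 46 and above it for 3. Over all genes these shares were 17% and 13.3%, which also stand beside the counts of each list below. Among other transcription factors of the crest, 18 of 19 genes had a probe and 13 were detected. Of these 1 passed the test as lower and 0 as higher, and 4 had all 7 resistant tumours below the control. The median difference was -0.79, against -0.02 over all genes. Under median scaling, which moves the median of all genes to -0.20, it was -1.07. Leaving out background correction gave -0.64, and averaging all detected probes of each gene gave -0.50. The gene that passed was Zic1, a zinc finger gene of the neural plate border, named here after its values were seen. It read 6.35 in the control and was not detected in any resistant tumour (4.43 to 4.64), at least 2.14-fold lower (limma adjusted p = 0.0143). As with Tfap2b, the spread behind that p is that of undetected values. Zic1 did not pass without background correction (adjusted p = 0.0728), with the deposited normalized values (0.0722) or without tumour 2 (0.0712). Foxd3, Msx2, Pax3, Pax7 and Dlx5 were detected on 0 arrays.

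Both paralogs of Tfap2b on the list were detected. Tfap2a, the AP-2 factor that acts earliest in the crest, was detected on all 8 arrays, at 10.92 in the control and 9.66 to 10.31 in the resistant tumours (median 9.95). Its adjusted p was 0.413, and 1 of its other detected probes went the other way, by 0.27. Tfap2b itself was not detected in any of resistant tumours 2 to 7. Tfap2c stood at 9.33 in the control and was highest, at 11.97, in resistant tumour 5, where Nrcam was not detected and Nes was lowest. In the other resistant tumours Tfap2c was at most 6.97, with 2 of them not detected (adjusted p = 0.807).

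Of the other progenitor markers, 11 of 12 had a probe and 8 were detected, 0 passed and 1 had all 7 tumours below the control. The median difference was -0.11. The hyaluronan receptor gene Cd44 read 11.05 in the control and 9.41 to 10.50 in the resistant tumours (adjusted p = 0.558). The mesenchymal filament gene Vim read 13.05 in the control and from 13.04 in tumour 6 to 14.18 in tumour 5 (adjusted p = 0.795).

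The partners of p75 and of the GDNF coreceptors were read next. Of the neurotrophin partners, which include ligands, receptors and other proteins, 8 of 11 had a probe and 7 were detected (median difference 0.07). All tumours lay below the control for 0 of them and above it for 1, Bex3, which is neither a ligand nor a receptor. Bdnf, which encodes a ligand of p75, read 7.32 in the control and from 4.89 in tumour 3, where it was not detected, to 9.64 in tumour 5. Ntrk2, its kinase receptor, was detected on 4 arrays, those of the control (6.71) and of tumours 1, 5 and 6 (8.96, 9.37 and 6.78). The sortilin gene Sort1, a coreceptor of p75, read 8.82 in the control and 6.42 to 9.67 in the resistant tumours (adjusted p = 0.844). Ntrk3, the receptor of neurotrophin 3, was detected on 1 array, at 5.29 in tumour 5.

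Of the GDNF family partners, all 7 had a probe and 3 were detected, with 0 passed and 0 on one side in all tumours (median difference 0.23). Ret itself was detected on 0 arrays, as were Nrtn, Pspn and Gfra3. Gdnf, the ligand of GFRA1, read 8.30 in the control and from 5.59 in tumour 6 to 9.79 in tumour 4. Artn, which encodes the ligand artemin, read 8.65 in the control and from 5.57 in tumour 5 to 11.59 in tumour 6, above the control in 6 of 7 (adjusted p = 0.917). Gfra4 was detected on 1 array, at 5.19 in tumour 6.

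Of the L1 and NCAM family and their partners, 13 of 14 had a probe and 11 were detected, 0 passed and 2 had all 7 tumours below the control (median difference -0.37, and -0.66 under median scaling). The growth cone gene Gap43 read 11.64 in the control and from 7.63 in tumour 6 to 10.98 in tumour 3 (adjusted p = 0.781). Alcam read 9.02 in the control and from 6.99 in tumour 3 to 9.77 in tumour 6. St8sia2 and St8sia4 make the polysialic acid that NCAM carries. St8sia2 was detected in the control alone, at 5.26, where the lowest detected level was 5.26, while St8sia4 read 8.25 in the control and 7.92 to 8.33 in the resistant tumours.

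The list of SOX10 target genes had 7 of 10 genes with a probe, and 1 was detected, so it has no summary. That gene, Ednrb, the endothelin receptor of migrating melanoblasts, read 9.60 in the control and from 8.76 in tumour 5 to 10.00 in tumour 1 on the probe used, and its 2 detected probes differed in sign. Of 8 cartilage genes that SOX9 switches on, all had a probe and 3 were detected, all near the limit. Col2a1 and Col9a1 were not detected in the control and were detected in 4 and 5 of the 7 resistant tumours, with the highest at 5.69 and 5.56 (adjusted p = 0.752 and 0.747). Acan, Matn1, Matn3, Hapln1 and Comp were detected on 0 arrays.

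**Figure D3:**
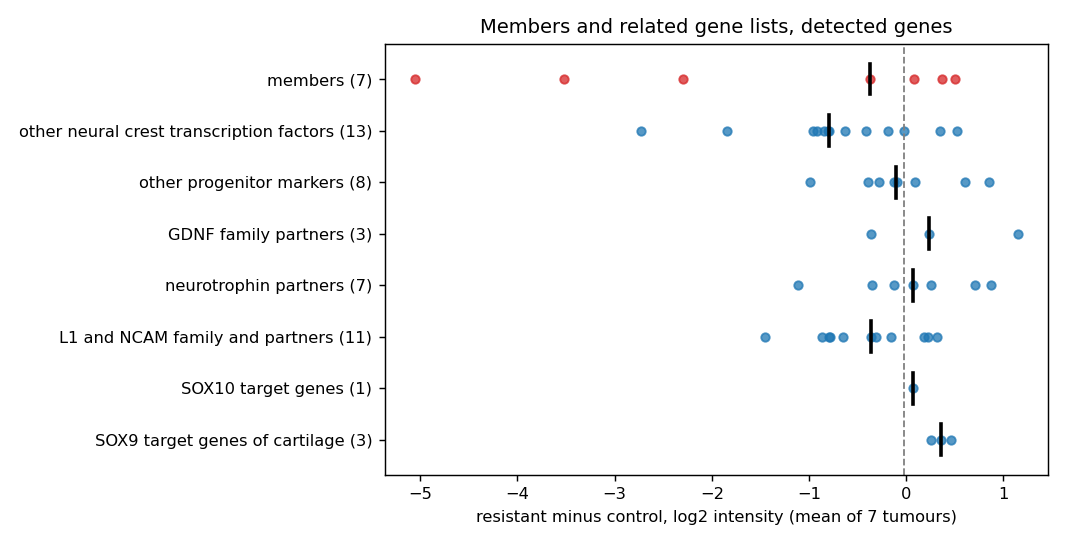
Mean difference between the 7 resistant tumours and the control in log2 intensity (horizontal axis) for each detected gene of the member set and of 7 related lists (vertical axis, number of genes in brackets). Points are genes, bars are list medians and the dashed line is the median of all genes, -0.02; the crest transcription factors have the lowest median, -0.79.

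Members are also made by other cells a tumour can hold, so the markers of these cells were summed as linear intensities over detected genes and put on the log2 scale. All 8 skeletal muscle markers were detected. The control's sum was 8.07. Resistant tumours 1, 2, 6 and 7 had sums of 14.93, 12.77, 10.79 and 10.76, and tumours 3, 4 and 5 of 7.75 to 8.19. Nes and Nrcam were highest in the control, and their relation to the muscle sum was not tested. Of 7 genes of satellite cells and myoblasts, 3 were detected. Des read 7.39 in the control and from 5.82 in tumour 3 to 10.84 in tumour 1. Myog read 5.62 in the control and 4.84 to 6.02 in the resistant tumours. Chrng was detected on 1 array and was highest in tumour 1, at 6.21. Pax7, Myf5, Myod1 and Chrnd were detected on 0 arrays.

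Neuronal markers, 3 of 8 detected, summed to 11.19 in the control and from 6.49 in tumour 6 to 10.65 in tumour 1. Map2, named above for its likeness to Ncam1 and not on this list, was highest in tumour 6. It read 10.00 there and 6.79 in the control. Nefm, a neurofilament gene, read 11.05 in the control, near the control's whole sum. It read 9.56 in tumour 1, the tumour that also had Tfap2b, and 4.64 to 8.42 in the other 6. Stmn2 read 7.60 in the control and from 4.51 in tumour 6 to 9.67 in tumour 1, above the control in 3 tumours and below it in 4. Rbfox3 was detected on 1 array and was highest in tumour 4, at 6.19. Tubb3, Snap25, Syt1, Nefl and Elavl4 were detected on 0 arrays. Schwann cell markers, 3 of 5 with a probe, summed to 9.90 in the control and 9.91 to 10.96 in the resistant tumours, and S100b and Cdh19 were detected on 0 arrays.

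Fibroblast markers, all 6 detected, summed to 15.29 in the control and 13.08 (tumour 6) to 15.44 (tumour 4). Thy1, a surface protein of fibroblasts and neurons, read 13.43 in the control and 9.33 to 11.80 in the resistant tumours. Endothelial markers, 5 detected, summed to 10.07 in the control and 9.66 to 11.16 in the resistant tumours. Natural killer cell markers, 3 of 5 detected, summed to 9.92 in the control and from 7.40 in tumour 4 to 11.72 in tumour 1, with 8.79 in tumour 6, where Ncam1 was highest. Of 6 keratinocyte and hair follicle genes, Krt10 was detected and the other 5 were not above background on any array. Each of the 4 macrophage markers with a probe exceeded the control in every resistant tumour, as did 13.3% of all genes. These markers summed to 12.08 in the control and 13.18 to 14.00 in the resistant tumours. The part of these cells in the levels of the members was not tested.

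**Figure D4:**
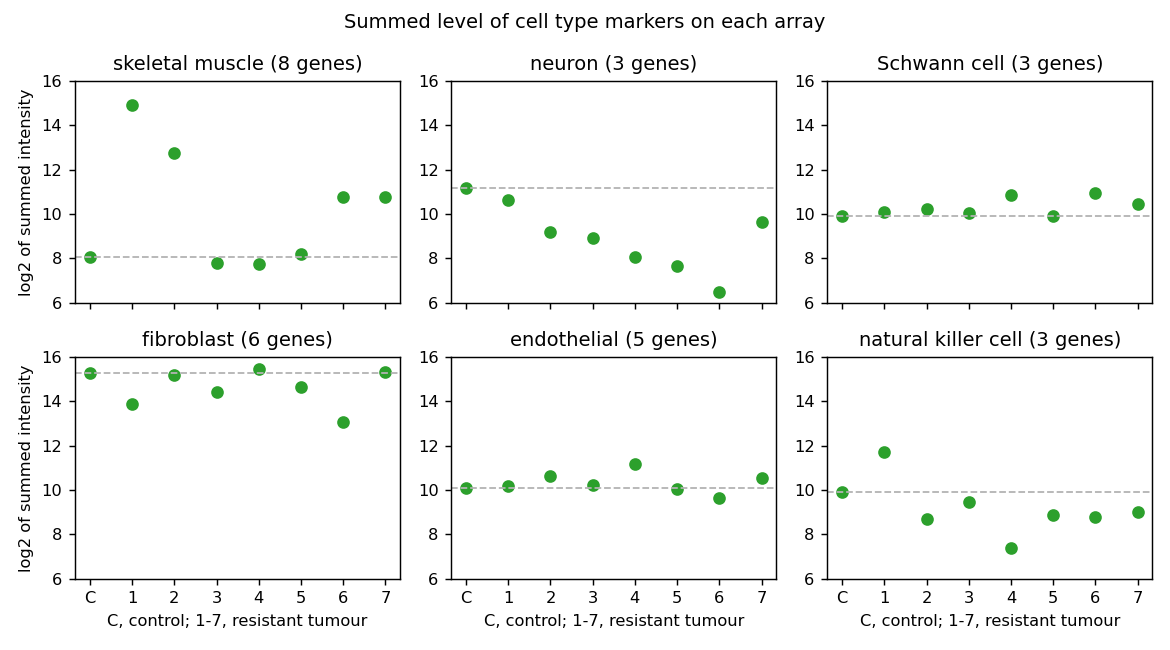
Log2 of the summed intensity (vertical axis) of the detected markers of 6 cell types in the control (C) and resistant tumours 1 to 7 (horizontal axis). The dashed line is the control. The muscle sum is highest in tumour 1, at 14.93. The neuronal sum is highest in the control, at 11.19, where Nefm alone read 11.05.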

How the data were processed

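Total RNA of 8 tumours was amplified to biotinylated cRNA with an Illumina kit, per the labels' protocols. The authors deposited a table of linear probe intensity with a detection p-value per probe and array, which is neither background-subtracted nor normalized, as its values show. A second deposited table holds normalized intensity with equal medians, made by a step that no label or header names, and it served as an alternative. The submitters' processing notes name GenomeStudio.

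Columns were matched to tumours by the identifiers in the sample descriptions and groups taken from the titles. Intensities were corrected with limma's neqc (offset 16, background inferred from the detection p-values), then quantile normalized as log2 values. Probes detected on at least 1 array were kept (15067 of 25697), and the brightest probe on average stood for each of 10461 genes. Symbols came from the platform annotation, updated by gene ID through a RefSeq table (assembly GRCm38.p6), which matched 23962 probes. The comparison of resistant tumours and control used lmFit and eBayes across all genes, two-sided, with Benjamini-Hochberg adjustment. A gene with no detected array in a group has only a bound there, the higher of its own signal and the lowest detected signal per array. The fit was tested on simulated data. Members and lists were chosen with earlier results of these data known. Named genes are all members, the 2 genes most like each member that varies, the 2 genes of each list with the largest difference among those detected on at least 4 arrays, and ligands or receptors of the members. Every other gene named with a level was chosen after its values were seen. Promoter stretches matched 6 of the 10 members in a RefSeq table. Precision is limited by how few arrays there are. The table columns name no chip, so no batch could be examined. R 4.3.3 and limma 3.58.1 were used.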

Additional observations from a re-analysis of the deposited data

Results flagged for a closer look

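Among the 7 resistant tumours, a single tumour's distance from its nearest neighbour was set against Dixon's 95% critical value for 48 items, 11 of them member probes and the rest other genes. In 7 of them 1 tumour stood apart. The rate of about 1 in 20 that goes with this critical value cannot be set against that count. Many items were picked for a large difference or range, and some hold undetected tumours. Resistant tumour 1 was the highest on 3 Tfap2b probes, at 8.71, 7.59 and 8.19, above a background of undetected tumours, and these probes read the same gene. Resistant tumour 5 was the highest for Tfap2c, at 11.97 with the next tumour at 6.97. It was the lowest for Artn, at 5.57 with the next at 9.10, and for Ednrb, at 8.76 with the next at 9.61. Resistant tumour 6 was the lowest for Gap43, at 7.63 with the next at 10.20. No cause was tested for any of these.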

How the results depend on the processing

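Of 104 differences of members recomputed under alternatives, 102 kept their direction and their side of the threshold. The exceptions were Tfap2b without resistant tumour 1 and Ncam1 without resistant tumour 6. Without each resistant tumour in turn, Tfap2b ranged from -4.98 to -4.57 and passed at the latter value alone, without tumour 1, on another probe (limma adjusted p = 0.000733; 0.000733 to 0.618 over its 14 alternatives), and members past the test ranged from 0 to 1. Ncam1 ranged from -0.018 to 0.25, turning below 0 without tumour 6, where another probe stands for the gene, as it does without tumours 1 and 4. Members with every resistant tumour above the control ranged from 0 to 2, and with every one below from 3 to 4. The latter count was 4 without a detection filter and 2 with detection on at least 4 arrays, where Tfap2b is dropped.

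Over all genes, 22 passed as lower and 1 as higher. The lower count was 8 without background correction, 8 with the deposited normalized values, 35 without a detection filter and 0 when detection on at least 4 arrays was required, a filter that drops Tfap2b and Zic1 and leaves 403 lower genes at an unadjusted limma p under 0.05. The higher count was 4 without a detection filter and 3 with an intensity trend and robust variance. Leaving out 1 resistant tumour gave 5 to 50 lower genes, the extremes being without tumours 2 and 1, and 1 to 8 higher genes. Zic1 was at -1.08 without background correction and with the deposited values, and at -1.84 without tumour 2, not passing in these 3. With a detection p under 0.01, Ngfr was detected on 2 arrays, the Ncam1 probes on 2 and 1, and Gfra1 on 1. Causes were not tested. Signal near background limits Ngfr, Gfra1, Ncam1, L1cam and Gfra2. No paired analysis was possible because there is only 1 control tumour, and its label carries no number to match.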

Other observations

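Resistant tumour 6 was the highest resistant tumour for 4 of the 7 tested members, Nes, Nrcam, Ngfr and Ncam1, and for 15 of the 46 detected genes of the related lists. It was the lowest resistant tumour for 0 of the 7 members and for 8 of those 46 genes. Over all 10461 genes it was the highest for 23.0% and the lowest for 25.3%. Genes noticed after their values were seen include Aldh1a1, an aldehyde dehydrogenase of progenitor cells, which was detected in tumour 6 alone, at 9.53. Sox2, a factor of neural progenitors, read 7.66 in the control, 8.71 in tumour 6 and 6.20 to 8.32 in the other resistant tumours. Sox8, a relative of Sox9 and Sox10, read 5.71 in the control, 6.90 in tumour 6 and at most 5.57 in the others. Ncam2 was detected in tumour 6 alone, at 5.96. Other genes of the same lists were lowest of the resistant tumours in tumour 6. They included the progenitor markers Cd34, at 6.54 there and 8.55 in the control, and Vim, at 13.04. Among the crest factors they included Twist1, at 7.05, and Ets1, at 9.22. Prrx1 read 6.41 there, against 8.94 to 9.84 in the other resistant tumours and 9.65 in the control. Tfap2b was not detected in tumour 6, nor in any other of tumours 2 to 7.

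Resistant tumour 5 was the lowest on both Nes probes and on the Nrcam probe, while it had the highest Tfap2c, Bdnf and Vim levels of the 8 tumours. Msx1, a homeobox gene of the crest chosen after its values were seen, was also highest there, at 10.86 against 7.54 in the control.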
